A study of Bos taurus with 34 samples.

Results

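The mature products of the bovine miR-21 hairpin, bta-miR-21-5p and bta-miR-21-3p, were followed through the blood small RNA libraries of healthy dairy cows and cows with subclinical endometritis (SCE). Both were taken by name, and they make up 2 of the 800 miRNA names counted. Of 34 deposited libraries, 33 were used, from 17 cows (6 healthy and 11 with SCE, in which the endometrium is inflamed but the cow looks well, and which was diagnosed here from cytology and biopsy of the uterus). They comprised 5 libraries of healthy cows and 11 of SCE cows at the sampling labelled day 25, and 6 and 11 at day 45. For healthy cow 3 the file deposited for day 25 repeated that for day 45, header included, so it was left out, and 16 cows had both samplings. The labels give serum and days 25 and 45, whereas the series' design text gives cell-free plasma and 21 and 44 days after calving. No breed, parity or treatment of the cows was given in the sources used here. Cows were the replicates, although the main edgeR fits between samplings did not pair the libraries of a cow.

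A miRNA is cut from a hairpin precursor as a duplex whose strands are the 5p and 3p arms. One arm is usually loaded into an Argonaute protein and guides it to messenger RNAs, and the other is mostly degraded. For miR-21 the 5p arm is the guide in most tissues. Its gene, induced by STAT3, AP-1 and NF-kB, is known for activity in inflammation, fibrosis and tumours, with PDCD4 among its best-studied targets. Its 3p arm is far scarcer and has been described in heart and immune cells. In cattle the gene (MIR21) lies between VMP1 and TUBD1 in the RefSeq annotation of assembly ARS-UCD2.0. The counts were made on build UMD 3.1, so no position is given.

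Total miRNA counts ran from 678389 to 28872153 per library, with a median of 9615667. The shallowest were both of SCE cow 10, at 1343401 and 678389. Between 348 and 646 miRNAs were detected per library. miR-486, which is abundant in red blood cells, took 3.95% to 81.1% of the counts. Its share differed between the statuses, with medians of 45.3% in healthy and 10.8% in SCE cows at day 25. At day 45 the medians were 48.0% and 36.5%. Levels are therefore given as counts per 1000000 counts after TMM scaling (CPM), which is meant to correct for such composition differences. The median TMM factor was itself unequal at day 25, at 0.72 in healthy and 1.37 in SCE cows. Reads were not marked with molecular identifiers, so intervals on shares cover counting error only.

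The 5p arm was among the most abundant miRNAs in every library and the 3p arm was always present at a lower level. Counts of bta-miR-21-5p ran from 7838 to 1889464, between 0.154% and 13.996% of a library's counts, and it ranked between 2nd and 28th by count. Counts of bta-miR-21-3p ran from 311 to 24995, and it ranked between 49th and 111th. By mean log2 CPM, the 5p arm was 9th and the 3p arm 71st of the 406 miRNAs that passed the filter on low counts. The SD of log2 CPM over the 33 libraries was 1.26 for the 5p arm, against a median SD of 0.85 over the 70 miRNAs at least as abundant as the 3p arm. That of the 3p arm was 0.94.

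In healthy cows at day 25, bta-miR-21-5p stood at 4611, 6327, 160402, 14682 and 13867 CPM in cows 1, 2, 4, 5 and 6. In the same group at day 45 it stood at 6984, 40850, 76947, 11714, 10089 and 19422 CPM in cows 1 to 6. A single library, that of cow 4, was about an order of magnitude above the others at day 25, and cows 2 and 3 stood high at day 45. In SCE cows the 5p arm ran from 3626 CPM in cow 7 over a median of 12922 to 23592 CPM in cow 10 at day 25. At day 45 it ran from 7134 CPM in cow 15 over a median of 12063 to 112244 CPM in cow 8, with cow 14 next at 65068. The medians of the 4 groups thus lay close together, the healthy ones at 13867 and 15568, while 5 libraries reached 40850 or more. Groups overlapped at both days. At day 25, 1 of 11 SCE cows lay below all healthy cows and none lay above them.

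**Figure D1:**
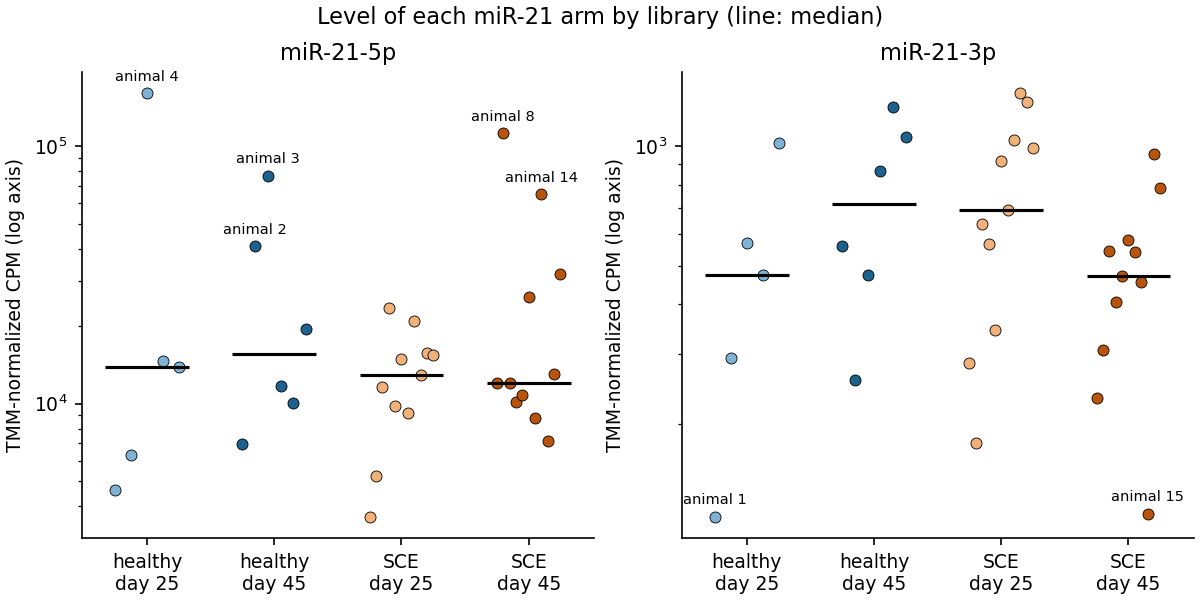
Level of each miR-21 arm in the 33 libraries, as TMM-normalized CPM on a log axis, by status and sampling day (points: libraries; line: group median). The 5p medians lie between 12063 and 15568 CPM, and the libraries of cows 2, 3, 4, 8 and 14 stand above them. The 3p arm is spread without such a tail, with cows 1 and 15 lowest.

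The 3p arm showed no such tail. In healthy cows at day 25 bta-miR-21-3p stood at 116, 292, 569, 474 and 1019 CPM in cows 1, 2, 4, 5 and 6. At day 45 it stood at 562, 257, 475, 867, 1258 and 1053 CPM in cows 1 to 6. Cow 4 at day 25, the highest for the 5p arm, was second of the 5 for the 3p arm. In SCE cows the 3p arm ran from 179 over a median of 689 to 1358 CPM at day 25 and from 119 over a median of 471 to 953 CPM at day 45. SCE values were the higher ones at day 25, with 3 of 11 above all healthy cows and 1 healthy cow below all SCE cows. At day 45 they were the lower ones, with 2 of 11 below all healthy cows and 2 healthy cows above all SCE cows.

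Neither arm passed the test between healthy and SCE cows. At day 25 the 5p arm differed by -1.64 (log2, SCE against healthy, SE 0.61; edgeR unadjusted p = 0.0129, adjusted p = 0.185), with n = 5 healthy and 11 SCE cows. That value rested on the library of healthy cow 4: without it the difference was 0.38 (SE 0.44; edgeR adjusted p = 0.629), and without the 7 libraries with the fewest miRNAs detected, this one among them, 0.26. The difference between the mean log2 CPM of the groups, which weights cows equally, was -0.45 (exact permutation test, two-sided, adjusted p = 0.775). The 3p arm differed by 0.58 (SE 0.49; edgeR adjusted p = 0.521) and kept its direction without any one cow, between 0.37 without healthy cow 1 and 1.05 without healthy cow 6. Of the 372 miRNAs tested at day 25, 1 passed (0.269%) and 75 had an unadjusted p under 0.05. By DESeq2 14 passed, and DESeq2 gave no p for the 5p arm.

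At day 45 the 5p arm differed by 0.031 (log2, SCE against healthy, SE 0.62; edgeR adjusted p = 0.995). Leaving out SCE cow 8 gave -0.41, leaving out healthy cow 3 gave 0.67, and leaving out the 7 libraries with the fewest miRNAs detected gave 0.38. The 3p arm differed by -0.55 (SE 0.40; edgeR adjusted p = 0.668), opposite in sign to day 25, and by -0.30 without healthy cow 5. None of the 382 miRNAs tested passed in edgeR (0%), 39 had an unadjusted p under 0.05, and 1 passed by DESeq2. With the counts of each cow summed over its libraries, the 5p arm differed by -0.47 (SE 0.52; edgeR adjusted p = 0.649) and the 3p arm by 0.043 (SE 0.35; edgeR adjusted p = 0.960). Without SCE cow 8 the 5p value was -0.84, without healthy cow 4 -0.11 and without healthy cow 3 0.11. Summed per cow, the 5p arm had a median of 17775 CPM over 6 healthy cows and 15010 CPM over 11 SCE cows, and the 3p arm medians of 609 and 629 CPM. In this comparison 1 of 418 miRNAs passed (0.239%), neither of the arms, and 69 had an unadjusted p under 0.05.

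Between samplings in SCE cows the fitted differences of the arms had opposite signs, and neither passed. The main fit had no term for the cow and so took both libraries of a cow as independent. In it, from day 25 to day 45 the 5p arm differed by 1.11 (log2, SE 0.46; edgeR unadjusted p = 0.0226, adjusted p = 0.705), and the 3p arm by -0.67 (SE 0.36; edgeR adjusted p = 0.705). Within cows the 5p arm was higher at day 45 in 7 of 11 and the 3p arm lower in 9 of 11, both together in 5 of 11. With each cow as a block, which pairs its libraries, the 5p value was 0.48 (SE 0.40; edgeR unadjusted p = 0.243, adjusted p = 0.701). The unpaired 5p value leaned on SCE cow 8, in which the arm went from 5255 to 112244 CPM: without that cow it was 0.46. Without the 7 libraries with the fewest miRNAs detected it was 0.28 (SE 0.37; edgeR unadjusted p = 0.452, adjusted p = 0.940). None of the 346 miRNAs tested passed between days in SCE cows (0%) by edgeR or DESeq2, and 14 had an unadjusted p under 0.05 in edgeR.

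In healthy cows the fitted signs were the other way round, although within cows the 5p arm was higher at day 45 in 3 of 5, with a median difference of 0.49. The fitted 5p value was -0.43 (log2, day 45 against day 25, SE 0.87; edgeR adjusted p = 0.9999), which became 1.91 (SE 0.70; edgeR adjusted p = 0.318) without cow 4 and 0.021 with each cow as a block. The 3p arm differed by 0.61 (SE 0.50; edgeR adjusted p = 0.9999) and was higher at day 45 in 4 of 5 cows, with a value of 0.33 without cow 5. None of 345 miRNAs passed (0%) by either tool, and 10 had an unadjusted p under 0.05 in edgeR. The difference of the day effect between the statuses was 1.65 for the 5p arm (SE 0.93; edgeR adjusted p = 0.988) and -1.22 for the 3p arm (SE 0.64; edgeR adjusted p = 0.988). Without healthy cow 4 the first was -0.49 and the second -1.25, and without SCE cow 8 the first was 0.99. With each cow as a block the first was 0.54 and the second -1.33. Without the 7 libraries with the fewest miRNAs detected the first was 0.098 (SE 0.63; edgeR adjusted p = 0.982) and the second -1.51 (SE 0.73; edgeR adjusted p = 0.935). None of 406 miRNAs passed (0%) by either tool, and 7 had an unadjusted p under 0.05 in edgeR.

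**Figure D2:**
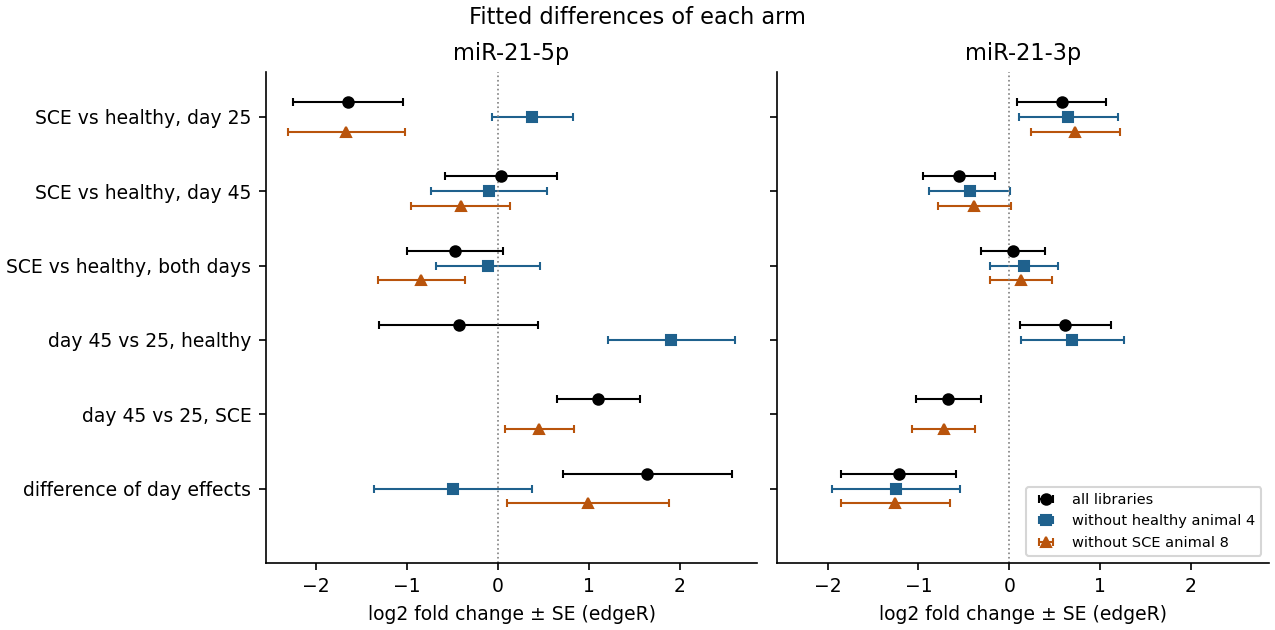
Fitted log2 fold change of each arm (edgeR, point ± SE) in the 6 comparisons, with all libraries, without healthy cow 4 and without SCE cow 8. For the 5p arm, leaving out cow 4 moves the day-25 difference from -1.64 to 0.38. A cow is left out only in comparisons that include it. For the 3p arm the values of each comparison lie close together, and none of the values shown passed after adjustment.

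The ratio of the arms within a library does not depend on how libraries are scaled. Over the 33 libraries there was a median of 22.2 reads of bta-miR-21-5p for each read of bta-miR-21-3p, from 8.02 in healthy cow 5 at day 45 to 365 in SCE cow 8 at day 45. The 3p arm accordingly made up 11.1% of the reads of both arms in the former (95% Wilson interval 11.0% to 11.2%) and 0.273% in the latter (0.266% to 0.281%). Even in the shallowest library, SCE cow 10 at day 45, the share of 3.82% was fixed to between 3.42% and 4.25%. The ratio thus varied far more between libraries than counting error covers.

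The high end of the ratio was made by 5 libraries set apart from the rest. These were SCE cow 8 at day 45 with 365 reads of the 5p arm per 3p read, healthy cow 4 at day 25 with 282, healthy cows 3 and 2 at day 45 with 162 and 159, and SCE cow 14 at day 45 with 143. The next library, SCE cow 15 at day 45, had 60.2. The same 5 libraries had few miRNAs detected (384, 366, 369, 348 and 401), although their totals lay between 7398849 and 14536010 counts. The only others with so few were the shallow libraries of SCE cow 10, with 396 and 348. Over the 33 libraries the log2 ratio and the number of miRNAs detected had a Spearman rho of -0.48, and -0.45 without cow 10. By day it was -0.22 at day 25 (n = 16) and -0.72 at day 45 (n = 17). The ratio and the total count had a rho of -0.13, with 0.06 at day 25 and -0.33 at day 45. What part the number of miRNAs detected has in the ratio was not tested. Each comparison was also run without the 7 libraries with the fewest miRNAs, an alternative chosen after these values were seen. Those libraries include the 5 with the highest ratio, so p-values of the ratio without them cannot serve as tests.

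As a log2 value, the ratio of 5p to 3p averaged 5.32 ± 1.68 (SD, n = 5) in healthy cows at day 25 and 4.88 ± 1.94 (SD, n = 6) at day 45. In SCE cows it averaged 4.17 ± 0.64 at day 25 and 5.42 ± 1.41 at day 45 (SD, n = 11 each). At day 25 SCE cows ran from 3.25 over a median of 4.02 to 5.38, with 4 of 11 below all healthy cows. The healthy cows 1, 2, 4, 5 and 6 had 5.31, 4.44, 8.14, 4.95 and 3.77. The groups overlapped, and healthy cow 4 lay above all others. The difference was -1.15 (log2, SCE minus healthy; exact permutation test, two-sided, p = 0.0424, adjusted over 28 hairpins 0.108), and -0.45 without cow 4. Without the 7 libraries with the fewest miRNAs it was -0.57 (exact permutation p = 0.114, adjusted 0.188, n = 4 and 10). Of the 28 hairpins with both arms counted, 5 passed in this comparison (17.9%), and miR-21 was 11th by p.

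At day 45 SCE cows ran from 3.78 over a median of 5.35 to 8.51, and healthy cows 1 to 6 had 3.64, 7.31, 7.34, 3.76, 3.004 and 4.21. Healthy cows 2 and 3 stood apart from the other 4, of which 3 lay below every SCE cow. The difference in means was 0.54 (exact permutation p = 0.516, adjusted 0.624) and that in medians 1.37 (exact permutation p = 0.161, adjusted 0.373). With single cows left out the difference in means ran from 0.17, without healthy cow 5, to 1.03, without healthy cow 3. Without the 7 libraries with the fewest miRNAs it was 1.25 (exact permutation p = 0.0222, adjusted 0.147, n = 4 and 8). This leaves out the highest ratios, among them those of healthy cows 2 and 3, so that p cannot serve as a test. At day 45 2 of 28 hairpins passed (7.14%). Over both days, on summed counts, the difference was -0.34 (exact permutation p = 0.637, adjusted 0.743), 0.076 without healthy cow 3, -0.66 without SCE cow 8 and 0.34 without those 7 libraries, and 7 of 28 hairpins passed (25%).

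Within SCE cows the ratio was higher at day 45 in 9 of 11 animals. The within-cow differences ran from -0.73 in cow 10 over a median of 1.39 to 3.63 in cow 8, with a mean of 1.25 ± 1.42 (SD, n = 11). The exact sign-flip permutation test, two-sided, gave p = 0.0195. Adjusted over 28 hairpins this was 0.319, none of them passed (0%), and miR-21 had the lowest p among them. Leaving out any 1 cow left the mean between 1.01 and 1.45. Without the 7 libraries with the fewest miRNAs it was 0.999 over 8 cows (exact permutation p = 0.0391, adjusted 0.365). The libraries left out include the highest ratios, so that p cannot serve as a test. Besides cow 10, the ratio was lower at day 45 in cow 11, by a small step from 4.83 to 4.53.

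In healthy cows the ratio was higher at day 45 in 2 of 5 animals. The differences were -1.67, 2.87, -4.38, -1.95 and 0.44 in cows 1, 2, 4, 5 and 6, a mean of -0.94 (exact sign-flip permutation p = 0.5, adjusted 1; the smallest p that 5 cows allow is 0.0625). Without cow 4 the mean was -0.077 and without cow 2 -1.89. None of 28 hairpins passed (0%). The day effect on the ratio was thus 2.19 higher in SCE than in healthy cows (log2; exact permutation of status over within-cow differences, p = 0.0483, adjusted 0.444), 1.33 without healthy cow 4 and 3.14 without healthy cow 2. None of 28 hairpins passed this comparison (0%), and it did not hold after adjustment for miR-21.

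**Figure D3:**
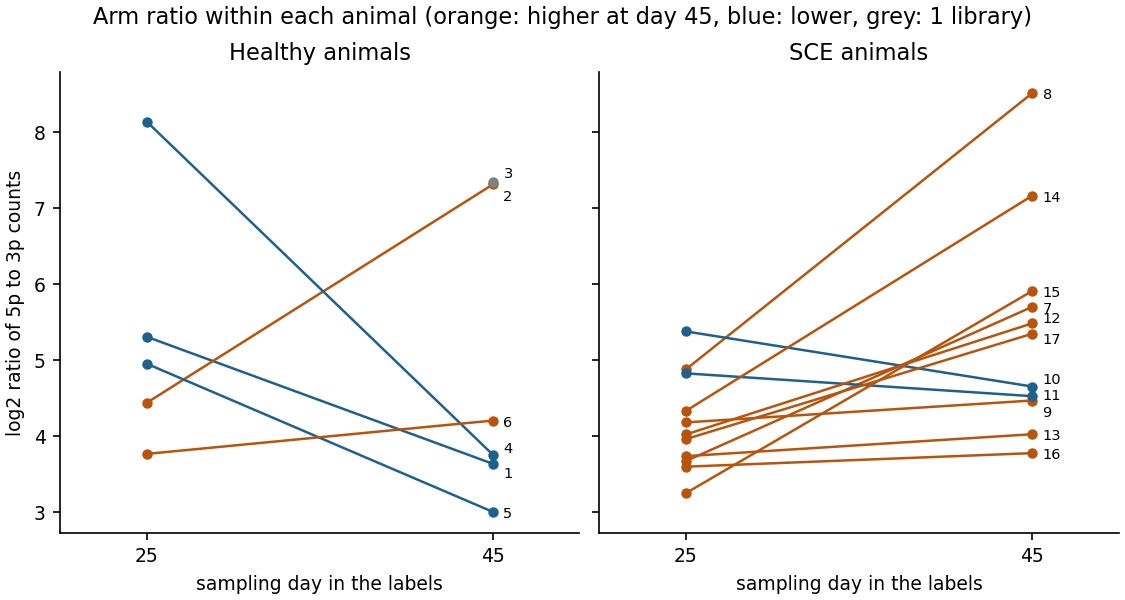
The log2 ratio of 5p to 3p counts of miR-21 in each cow at the samplings labelled day 25 and day 45, healthy cows left and SCE cows right (numbers: cows; orange lines: higher at day 45; blue lines: lower; grey: the single library of healthy cow 3). The ratio is higher at day 45 in 9 of 11 SCE cows and in 2 of 5 healthy cows.

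Set beside other hairpins, the arm preference of miR-21 was strong but not extreme. Its median log2 ratio of 4.47 was the 5th highest of 28, and 15 of the 28 had more 5p than 3p. Next above it were miR-142 at 4.53, let-7a at 5.95 and miR-2419 at 7.40, and next below miR-126 at 4.27, miR-17 at 3.98 and miR-6119 at 3.65. The SD of the ratio over libraries was 1.41 for miR-21, against a median of 1.44 over the 28 hairpins. It was 0.56 for miR-126, the endothelial miRNA, which was the steadiest. That median includes hairpins with a scarce arm, such as miR-545-3p and miR-365-5p (mean log2 CPM -0.25 and -0.67). Among hairpins with both arms at least as abundant as miR-425-3p (6.10), a cut set afterwards, miR-21 had the highest SD, at 1.411. There miR-151 had 1.409, miR-142 1.33, miR-425 1.02, miR-1388 0.65 and miR-423 0.60. The highest ratio of miR-21, 8.51, lay above the highest of miR-126 (5.79), miR-17 (5.997), miR-6119 (5.18) and miR-142 (6.85). It lay below those of let-7a (10.3) and miR-2419 (12.1), whose 3p arms were scarcer, at a mean log2 CPM of 3.93 and 0.51 against 9.03.

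**Figure D4:**
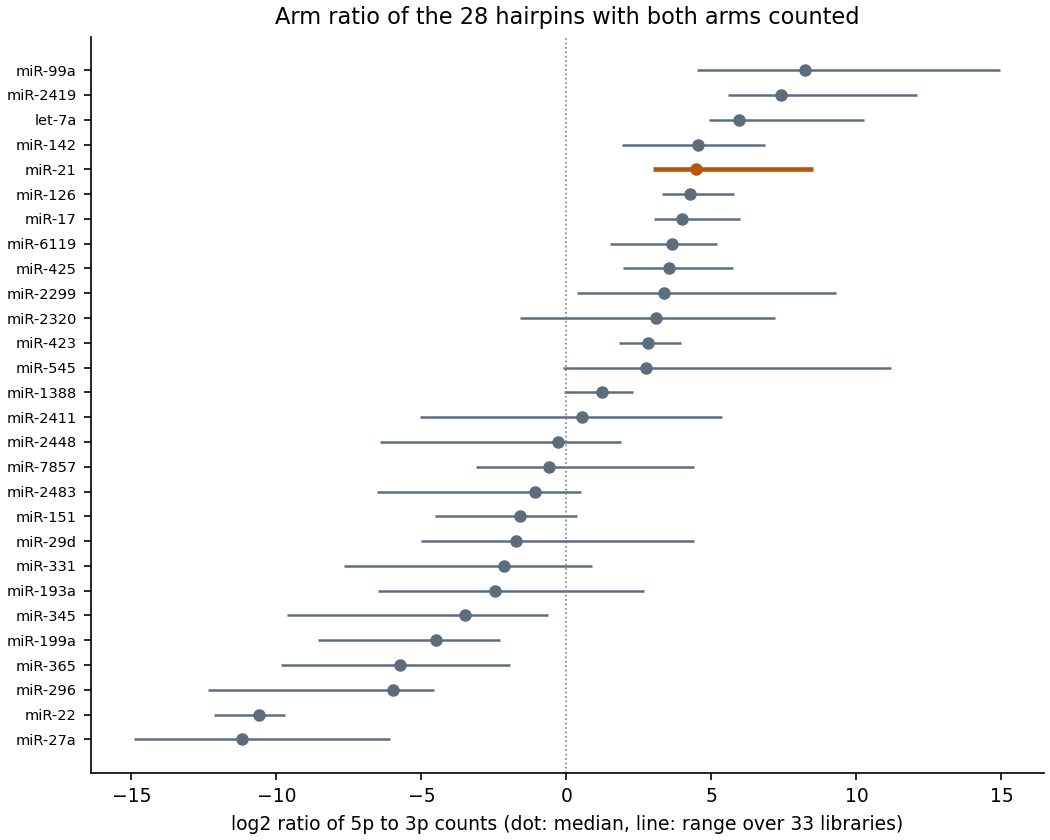
Log2 ratio of 5p to 3p counts for the 28 hairpins whose arms are both named and average at least 10 reads per library (dot: median; line: lowest to highest of 33 libraries; miR-21 in orange). miR-21 is 5th from the top with a median of 4.47 and a range from 3.004 to 8.51.

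The levels of the arms gave a positive correlation over cows at day 25 and one near 0 at day 45. At day 25, over 16 cows, log2 CPM of the arms had a Pearson r of 0.50 (permutation p = 0.0446, adjusted over 9 relations 0.401) and a Spearman rho of 0.61 (permutation p = 0.0141, adjusted 0.0936). Without healthy cow 4 and SCE cow 7, the cows farthest from the median of the 5p arm, r was 0.81, and within the 11 SCE cows it was 0.75. At day 45, over 17 cows, r was -0.078 (permutation p = 0.767, adjusted 0.771) and rho -0.096 (permutation p = 0.716, adjusted 0.832). At day 45 r was 0.16 within 11 SCE cows and -0.58 within 6 healthy cows (rho 0.26 and -0.54). Neither relation passed after adjustment, and the difference between the days was not tested.

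**Figure D5:**
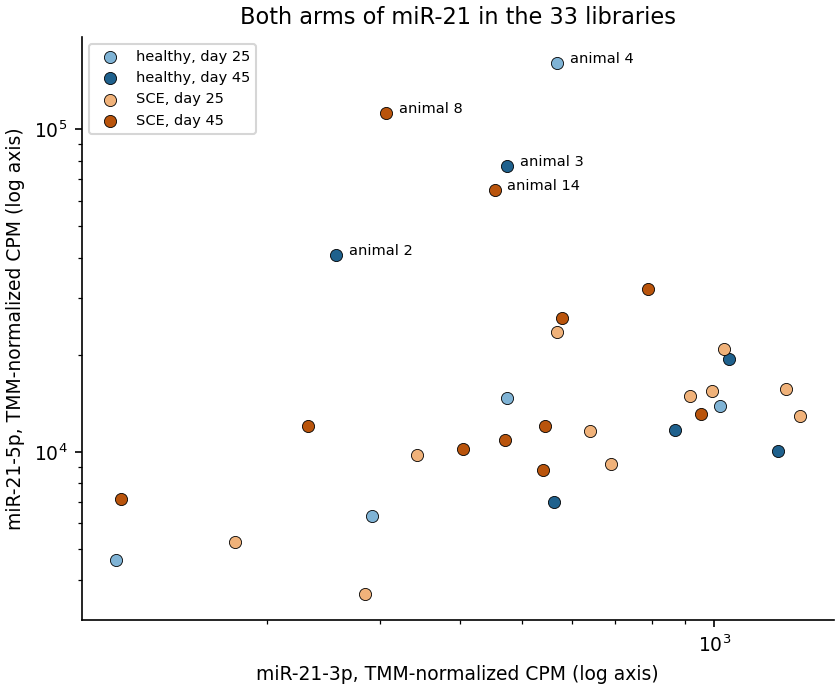
Level of bta-miR-21-5p against bta-miR-21-3p in the 33 libraries (both as TMM-normalized CPM on log axes; colour: status and day). The 5 libraries with the highest 5p level, marked by cow, hold between 257 and 569 CPM of the 3p arm and lie above the other 28.

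A cow's level at day 25 did not carry over to day 45 in a way these numbers could show. Over the 16 cows with both samplings, r between the days was -0.11 for the 5p arm (permutation p = 0.684, adjusted 0.771; rho 0.11, permutation p = 0.695, adjusted 0.832). For the 3p arm r was 0.18 (permutation p = 0.502, adjusted 0.771; rho 0.24, permutation p = 0.374, adjusted 0.727). For the ratio r was -0.22 (permutation p = 0.410, adjusted 0.771; rho -0.22, permutation p = 0.404, adjusted 0.727), and 0.0013 without cows 4 and 10. None of these passed, and with the farthest cows left out the 5p arm gave -0.097 and the 3p arm 0.18.

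The pattern of bta-miR-21-5p over the 33 libraries was most like that of miR-545-5p (Spearman rho of log2 CPM 0.88), miR-301a (0.85), miR-374c (0.84), miR-142-3p (0.84), a miRNA of blood cells, and miR-18a (0.81) of the miR-17-92 cluster. Without healthy cow 4 at day 25 and SCE cow 8 at day 45 the same 5 led, at 0.86, 0.82, 0.81, 0.81 and 0.77. Within the 22 SCE libraries miR-142-3p (0.90), miR-545-5p (0.85), miR-18a (0.81), miR-301a (0.80) and miR-345-3p (0.80) led. The 3p arm of the same hairpin came only 78th of 405 in likeness to the 5p arm, with a rho of 0.34. Over 28 hairpins the median rho between arms was 0.21. All these values share the scaling of the libraries, and most cows enter with both of their libraries.

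The 3p arm kept other company. Its pattern was most like that of miR-2299-5p (rho 0.79), miR-3065 and miR-338 (0.73 each, with almost identical counts, so that they are 1 signal), miR-151-5p (0.69) and miR-874 (0.69). Within the 22 SCE libraries miR-24, at a very low mean level, led with 0.83, followed by miR-2299-5p (0.76), miR-151-5p (0.73), miR-195 (0.72) and miR-3065 (0.72). None of the 5 miRNAs most like one arm over the 33 libraries was among the 5 most like the other.

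The arms of the 6 hairpins nearest miR-21 in arm preference had the following likeness to bta-miR-21-5p. miR-142-3p, the scarcer arm of its hairpin, had a rho of 0.84 with it, whereas miR-142-5p had 0.0030. let-7a-5p, the guide arm of let-7a, had 0.78 and let-7a-3p 0.24. miR-17-5p had 0.74 and miR-17-3p 0.45. For miR-6119 the values were 0.40 (5p) and 0.58 (3p), for miR-2419 -0.16 and 0.0077, and for miR-126 -0.28 and -0.54. An arm with a rho above 0.5 was thus present in 4 of the 6 hairpins, the 5p arm of let-7a and miR-17 and the 3p arm of miR-142 and miR-6119. Among the other tested hairpins only miR-545 (5p, 0.88) and miR-345 (3p, 0.74) had such an arm. Over all miRNAs 48 of 404 (11.9%) had a rho above 0.5 with bta-miR-21-5p, and 56 had one below -0.5. These count single miRNAs, so the count by hairpin, where either arm could qualify, cannot be set directly against them. Whether arm preference has a part in this was not tested.

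Other miRNAs known to be induced by NF-kB, STAT3 or AP-1 or in activated immune cells gave 18 of 20 listed names in the files, with miR-21 itself left out. None passed in any of the 6 comparisons. At day 25, 9 of 16 tested were higher in SCE, against 178 of all 372 miRNAs, with a median log2 difference of 0.06 against -0.05 over all. At day 45, 12 of 17 were higher, against 218 of 382 miRNAs (median 0.52 against 0.11 over all). Over both days it was 12 of 17, against 222 of 418 (0.48 against 0.04). Between days, 7 of 16 were higher at day 45 in healthy cows, against 182 of 345 miRNAs (-0.09 against 0.01 over all). In SCE cows 9 of 16 were higher, against 144 of 346 (0.10 against -0.11). For the difference of the day effects 11 of 17 were positive, against 204 of 406 (0.16 against 0.01).

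The members with the lowest unadjusted p between statuses did not include a gain or loss past the threshold. At day 25 these were miR-222, which targets cell cycle inhibitors, with a log2 difference of 0.94 (SE 0.35), miR-29b, a repressor of collagen messages, with 1.17 (SE 0.47), and miR-181c with 0.90 (SE 0.50). Their edgeR adjusted p lay at 0.185, 0.185 and 0.296. At day 45 they were miR-29b with 1.23 (SE 0.56), miR-187 with 2.03 (SE 1.01) and the neutrophil miRNA miR-223 with 0.77 (SE 0.41). Over both days they were miR-222 with 0.80 (SE 0.30), miR-29b with 1.03 (SE 0.39) and miR-187 with 1.46 (SE 0.63). With healthy cow 4 included, the 5p arm of miR-21 at day 25, at -1.64, had the opposite sign to miR-222, miR-29b and miR-181c. Without that cow the 5p arm was at 0.38. The list members were not fitted without it, so their signs cannot be set against that value. Of the 16 members tested at day 25, 7 were lower and 9 higher in SCE, where 178 of all 372 miRNAs were higher.

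Across the 33 libraries of 17 cows the summed CPM of this list had a rho of 0.86 with bta-miR-21-5p and 0.37 with bta-miR-21-3p. Most cows enter with both of their libraries, and these values share the scaling of the libraries. Of 17 members, 4 had a rho above 0.5 with the 5p arm (23.5%), against 48 of 404 miRNAs in all (11.9%). These were miR-142-3p (0.84), miR-221 (0.81), miR-155 (0.66), an activator of lymphocyte and macrophage responses, and miR-223 (0.66). Of the other members, miR-125b (-0.69), miR-132 (-0.42), miR-187 (-0.41), miR-146b (-0.40), miR-146a (-0.37), miR-222 (-0.21) and miR-29b (-0.12) had a negative rho. The most abundant member, miR-221, weighs most in the sum.

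The whole profile was examined in the library with the highest 5p level at each day, that is in 2 of the 5 high ones. In healthy cow 4 at day 25, 100 of 406 miRNAs (24.6%) were above and 144 (35.5%) below all 4 peers of its group, where each of those peers had 15.8% to 24.4% above and 8.62% to 18.2% below the rest of the group, and miR-21-5p had the 8th highest excess over the peers' median. In SCE cow 8 at day 45, 63 (15.5%) were above and 76 (18.7%) below all 10 peers, within the 1.97% to 19.5% above and 0.985% to 19.95% below of the other 10 libraries, and miR-21-5p was 5th. The summed CPM of the inflammation-induced list was 21764 in the former against 3442 to 6294 in its peers, and 15985 in the latter against 4354 to 11958. Of the list, 10 of 17 members were highest and 3 lowest in cow 4, and 6 of 17 were highest and 4 lowest in cow 8. miR-212 was at 0 in cow 4 and miR-187 in cow 8. Both libraries were picked for their 5p level.

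Markers of cells that release RNA into blood were summed in the same 2 libraries. In cow 4 the summed CPM of 4 red blood cell miRNAs was 285032 against 437581 to 2070310 in its peers (TMM scaling does not hold such sums to a library's total), with all 4 members lowest and none at 0. The sum of 6 epithelial miRNAs was 178 against 300 to 1147, with 5 members lowest and miR-200c at 0. That of 4 liver miRNAs was 10461 against 33544 to 84411, with 3 members lowest and miR-885 at 0. Those of platelets (8 members, 308447 against 58381 to 497685), neutrophils and monocytes (6 members, 17032 against 11765 to 38936, miR-424-5p at 0) and lymphocytes (5 members, 12501 against 7353 to 13932) lay within the range of the peers. So did that of endothelium and stroma (8 members, 76535 against 17158 to 199934). The striated muscle sum was 9.29 against 15.4 to 32.2. It holds only the 2 of 4 members that passed the filter on low counts, of which 1 was lowest and 1 highest in cow 4. miR-1 and miR-206 of that list were at 0 in cow 4. Extreme values were common in cow 4, where 35.5% of all 406 miRNAs were lowest and 24.6% highest in the group. Counts of single members are to be read beside those shares. Of endothelium and stroma 6 were lowest and 1 highest, of platelets 3 and 2, and of lymphocytes 2 and 3. Of neutrophils and monocytes 0 were lowest and 2 highest. In SCE cow 8 the epithelial sum was 259 against 403 to 5602, with miR-200b at 0, and the red cell sum of 318341 lay within 26949 to 634942. The platelet, neutrophil and monocyte, lymphocyte, endothelial and liver sums of cow 8 lay within those of its peers, and that of striated muscle, at 8.14, was below all. Of the epithelial list 4 members were lowest in cow 8 and 0 highest, and the same counts held for endothelium and stroma. Of all 406 miRNAs, 18.7% were lowest and 15.5% highest there. The part of these values in the level of miR-21 was not tested for the lists as such.

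Haemolysis was followed by the log2 ratio of miR-451, of red blood cells, to miR-23a, a miRNA little changed by it. Over the 33 libraries this ratio had a Spearman rho of -0.66 with bta-miR-21-5p, -0.46 with bta-miR-21-3p and -0.10 with their ratio. At day 25 these were -0.69, -0.79 and 0.29, and at day 45 -0.72, -0.05 and -0.42. The log2 ratio of miR-486 to miR-23a had a rho with the 5p arm of -0.58 at day 25 (permutation p = 0.0208, adjusted 0.0936). At day 45 it had one of -0.076 (permutation p = 0.771, adjusted 0.832). The miR-451 ratio was followed further. The miR-451 to miR-23a ratio was -0.35 in healthy cow 4 at day 25, the lowest of its group, where the others ran from 1.39 to 5.32. With this ratio as a covariate the 5p difference between SCE and healthy cows was -1.20 at day 25 (SE 0.47; edgeR adjusted p = 0.204) and -0.68 at day 45 (SE 0.48; edgeR adjusted p = 0.605). The 3p difference was 0.25 (SE 0.38; edgeR adjusted p = 0.699) and -0.66 (SE 0.41; edgeR adjusted p = 0.564). The 5p values thus had the same sign at both days in that fit and passed at neither.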

How the data were processed

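The TruSeq Small RNA kit was used on 10 to 20 ng of input with 13 or 16 PCR cycles, per the labels' protocols. Each deposited file gives 1 library as whole-number read counts by mature miRNA name, without normalization. Per the submitters' processing notes, bcl2fastq 2.17.1.14, build UMD 3.1 and DESeq2 were used. Aligner, counter and the handling of reads shared between miRNAs: not given in the sources used here.

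Files were joined by name. Each comparison was fitted over all miRNAs in edgeR 4.0.16 by its quasi-likelihood F test (R 4.3.3; TMM scaling, default filter on low counts, Benjamini-Hochberg adjustment, threshold 0.05, two-sided), with SE computed as the absolute log2 fold change over the square root of F. Levels use TMM factors over all 33 libraries and log2 CPM a prior count of 2. The arm ratio is log2 of 5p over 3p counts with 0.5 added to each. It was tested by exact permutation and adjusted over the 28 of 70 hairpins with both arms named that average at least 10 reads per arm. Relations used 100000 permutations. The steps were tested on simulated data.

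Both libraries of a cow come from the same animal, so the animal number pairs them. The main edgeR fits between days, and of the difference of the day effects, held no term for the cow. They took its libraries as independent, and the block was the alternative. The arm ratio between days was tested within cows. Deviations from group means correlated within cows at a median r of 0.25 over 16 cows, over 0.1 in 11, against -0.03 between cows of the same status. Alternatives were other scalings, DESeq2 1.42.0, no filter, leaving out miR-486, a haemolysis covariate, the block, another pseudocount of 1, medians, and leaving out cows or libraries. Named miRNAs are both arms, the 5 most like each arm by Spearman rho over all and over SCE libraries, hairpins next in arm ratio, and the list members with the 3 lowest p per status comparison. Others in the accounts of likeness, of single list members and of arms were named after their values were seen. The arms and lists were chosen with earlier results of these data known. Sequences, and miRNAs sharing a seed, are not analysed here.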

Additional observations from a re-analysis of the deposited data

How the results depend on the processing

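No alternative brought either arm or the arm ratio past the threshold. The lowest adjusted p over all of them was 0.0513, for the arm ratio at day 25 with 1 cow left out. Of 122 alternatives that left out no single cow, 111 kept the direction and 11 reversed it, and of 250 fits without 1 cow 15 reversed it; the cause was not tested. For the 5p arm between SCE and healthy cows at day 45, the value was -0.029 without miR-486 reads, -0.68 with the miR-451 to miR-23a covariate and -0.066 by exact permutation of mean log2 CPM. Over both days it was 0.16 when scaled by library totals alone. Leaving out the 7 libraries with the fewest miRNAs detected was chosen after the data were seen and removes those with the highest 5p level and arm ratio. The 5p arm then gave 0.26 at day 25, 0.37 over both days and 0.30 between days in healthy cows. The arm ratio over both days gave 0.34. Between days in healthy cows the 5p arm gave 0.44 with the covariate, and the 3p arm between statuses over both days gave -0.21 with it.

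With each cow as a replicate block, the 5p value between days was 0.021 in healthy cows, 0.48 in SCE cows and 0.54 for the difference of the day effects, with no change of call in either arm. With single cows left out, the 5p arm ranged from -2.04 to 0.38 at day 25, -0.41 to 0.67 at day 45, -0.84 to 0.11 over both days, -1.16 to 1.91 between days in healthy cows and -0.49 to 2.40 for the difference of the day effects. The 3p arm over both days ranged from -0.087 to 0.23 and the arm ratio over both days from -0.66 to 0.076. Scaling by library totals moved the median of all miRNAs between statuses to 0.88 at day 25, 0.71 at day 45 and 0.77 over both days, from -0.053, 0.11 and 0.043, so differences under it are relative to those shifts. Under it 48, 1 and 64 miRNAs passed, against 1, 0 and 1. By library totals the 5p arm differed by -0.85 at day 25 (edgeR adjusted p = 0.437). The 3p arm differed by 1.65 (edgeR unadjusted p = 0.0186, adjusted p = 0.0806). By DESeq2 14, 1 and 11 passed. Requiring 20 reads of the 3p arm removed no library, since its lowest count was 311, and gave no separate value.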

Other observations

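Other hairpins also had arms that differed in likeness to bta-miR-21-5p over the 33 libraries, as values with no test. miR-545-5p had a Spearman rho of 0.88 and miR-545-3p 0.020. miR-345-3p had 0.74 and miR-345-5p 0.21. miR-423-5p and miR-423-3p, of a hairpin used as a plasma reference, ran together in the opposite direction at -0.69 each. miR-22-5p had -0.68 and miR-22-3p -0.27. With bta-miR-21-3p the order was another one: miR-22-3p had 0.52 and miR-27a-3p 0.57, and miR-423-5p -0.33.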
